A study of Mus musculus with 4 samples.

Results

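The 8 genes described are 6 serpins and both plasminogen activators, taken by symbol from the 55141 genes of the deposited tables: Serpine2, Serpinb1a, Serpinb6a, Serpinf1, Serping1, Serpina3n, Plat and Plau. The genes were selected on earlier results from these same libraries, so their levels and ratios are a description and no test is made of them. The cultures were primary articular chondrocytes from femoral heads of mice aged 3 weeks on a C57BL/6 background, freed with collagenase and grown in medium with serum, and 1 library was made from each condition. The first is labelled wild type (WT), a name that the study's results also use, although its methods name Control chondrocytes, from mice with floxed miR-23a/b clusters and no Cre, for this experiment, so the genotype of that library is not certain. Cart-miR-23clus KO carries Col2a1-cre and flox/flox alleles of the miR-23a and miR-23b clusters, a deletion limited to cells in which the Col2a1 promoter has been active. The miR-26a KO library is miR-26a -/-, and the last library is from miR-26a -/- chondrocytes transfected with a double-stranded miR-26a mimic (C57BL6/J in its label). Whether the miR-26a KO library received the control siRNA that the protocol describes is not stated, and the number of animals behind each library is not given in the sources used here. The study used male mice.

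Serpins are suicide inhibitors: the protease cuts an exposed loop, stays bound to it and is inactivated with the serpin. Plat (tissue plasminogen activator) and Plau (urokinase) cut plasminogen to plasmin, a broad protease that digests fibrin and can activate matrix metalloproteinases, and serpins such as Serpine2 hold both activators in check outside the cell. In cartilage this balance is one of the controls on pericellular proteolysis, while clade B serpins act mostly inside cells and clade A serpins circulate or are secreted in the acute phase response.

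The miRNAs of the deleted loci are shown because the deletions define the groups, with miR-26b-5p added for its seed. RefSeq (GRCm38.p6) gives the mature strands below, 5′ to 3′, with the seed (bases 2 to 8) in capitals. miR-23b-3p also belongs to the deleted clusters. miR-27a-3p and miR-27b-3p share a seed, as do miR-26a-5p and miR-26b-5p, and the sense strand of the mimic is identical to miR-26a-5p.
miR-23a-3p: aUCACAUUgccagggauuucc
miR-24-3p: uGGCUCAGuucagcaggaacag
miR-27a-3p: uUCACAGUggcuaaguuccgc
miR-27b-3p: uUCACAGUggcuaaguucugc
miR-26a-5p: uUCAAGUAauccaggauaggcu
miR-26b-5p: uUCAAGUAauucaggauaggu

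Searching the longest annotated 3′ UTR of each of the 8 genes (GENCODE vM21, GRCm38) for the 7 letters that pair with a seed gave 4 matches in 3 genes, which are printed here with the match in capitals. AATGTGA pairs with the seed of miR-23a-3p, ACTGTGA with miR-27, CTGAGCC with miR-24-3p and TACTTGA with miR-26.
Plau, miR-23a-3p, chr14:20843356-20843380, plus strand: taaaggtgatcaataAATGTGAttt
Plau, miR-27, chr14:20843053-20843077, plus strand: tttccctaactccagACTGTGAtgc
Serpina3n, miR-24-3p, chr12:104413806-104413830, plus strand: cactagcccatgttcCTGAGCCtga
Serpinb1a, miR-26, chr13:32842730-32842754, minus strand: gattattttcatttgTACTTGAcaa

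The Plau matches begin 921 and 618 bases after the stop codon in a 3′ UTR of 935 bases. The Serpina3n match begins at base 215 of 723, and the Serpinb1a match at base 79 of 726. None of the 4 matches is followed by the A that lies opposite the first base of a miRNA, so none counts as a match of 8 bases. Serpine2, Serpinb6a, Serpinf1, Serping1 and Plat held no match to any of these 4 seeds, and their longest 3′ UTRs run from 123 bases (Serpinb6a) to 808 bases (Serpine2). Among 6694 genes compared between Cart-miR-23clus KO and WT, a match was present in 17.6% for miR-23a-3p, 18.3% for miR-27, 19.5% for miR-24-3p and 12.4% for miR-26, against 1 of the 8 genes for each. A match is a description of letters in a window, not a shown site of binding.

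The depth was 1498579 reads on genes in WT, 1362870 in miR-26a KO, 1449246 in the mimic library and 1328042 in Cart-miR-23clus KO. Levels are the deposited TPM, reads divided by gene length and scaled to a common sum in each library. Since reads from a 3′ library come from one end of an mRNA, dividing by length can distort the order of genes, though not the ratio of 1 gene between libraries. Ratios are TPM ratios, and the interval after each is an exact Clopper-Pearson 95% interval of the ratio of CPM, reads scaled to the library total alone. It covers counting error only and compares 2 libraries, not 2 conditions, and with 1 library each there is no replicate check. Serpine2, Serpinb1a, Serpinb6a and Serpinf1 had at least 20 reads in every library, and Serping1, Plat and Plau had fewer than 20 in every library. A gene with 0 reads may hold up to 0.000200% (WT) to 0.000226% (Cart-miR-23clus KO) of the reads, taking 3 reads as the floor. All 10 chondrocyte markers had at least 20 reads in every library (Col2a1 25154 to 35871 reads), and the erythroid markers were at 0 throughout. Neutrophil markers were at 0 apart from 1 read of S100a8 in WT. In these bulk cultures, fewer cells of a type and less RNA per cell cannot be told apart.

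**Figure D1:**
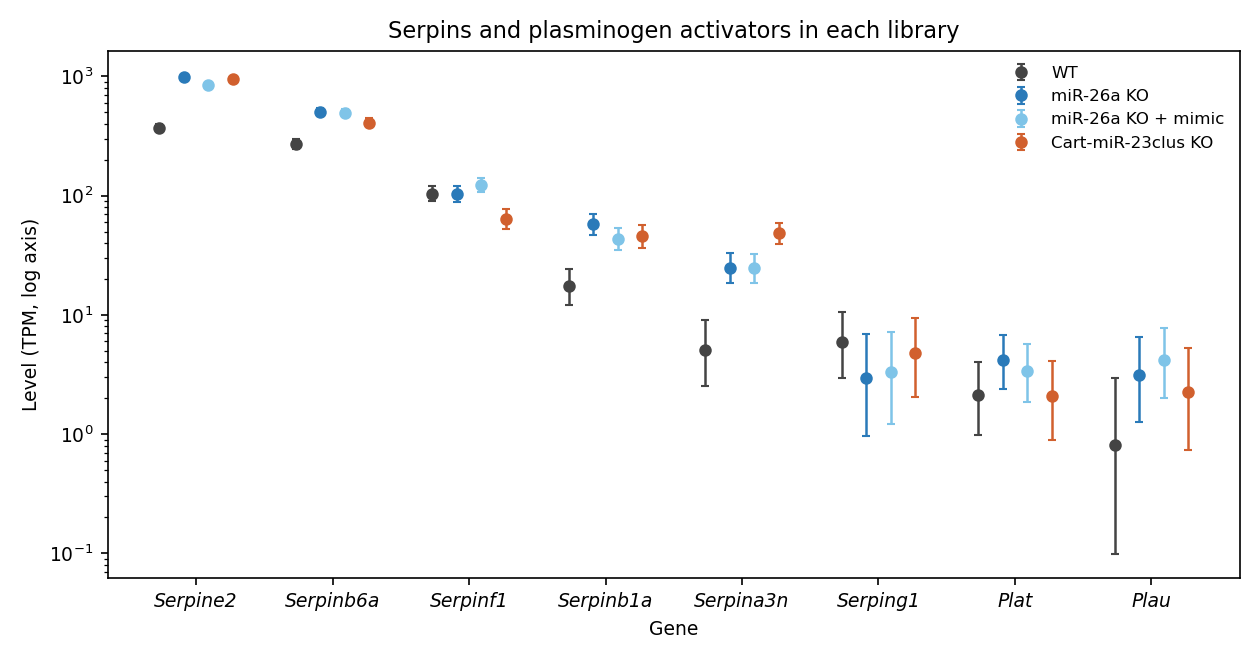
Level of each of the 8 genes in each of the 4 libraries, in TPM on a log axis. Each point is 1 library and each bar is the exact 95% Poisson interval of its reads. Serpine2 is the highest gene in every library (370 to 991 TPM), and the WT point is the lowest of the 4 for Serpine2, Serpinb6a, Serpinb1a, Serpina3n and Plau.

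Serpine2 (protease nexin-1, ENSMUSG00000026249, chr1:79794197-79861180, minus strand, GRCm38) inhibits thrombin, urokinase and tissue plasminogen activator at the cell surface and in the matrix. Its level was 370 TPM in WT (855 reads), 991 TPM in miR-26a KO (2084 reads), 842 TPM in the mimic library (1895 reads) and 954 TPM in Cart-miR-23clus KO (2001 reads). The WT library was thus the low one, and the 3 others lay close together and well above it. The ratio to WT was 2.58 (2.44 to 2.86) in Cart-miR-23clus KO. That of miR-26a KO was 2.68 (2.47 to 2.91). Both comparisons share the WT library. With the mimic the level was 0.850 times that of miR-26a KO (0.803 to 0.910), and the ratio of Cart-miR-23clus KO to miR-26a KO was within counting error of 1 (0.963, 0.926 to 1.05). By level Serpine2 ranked 426 among all genes in WT and 138 in miR-26a KO.

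The Serpine2 promoter is shown because this gene takes the most reads of the 8. RefSeq (GRCm38.p6) places it at chr1:79858616-79858915, minus strand, inside the GENCODE span of the gene, and the window runs from 250 bases before to 50 after the start. GGGCGG, the GC box, was found at 6 overlapping or separate positions on this strand and is in capitals.
Serpine2 promoter: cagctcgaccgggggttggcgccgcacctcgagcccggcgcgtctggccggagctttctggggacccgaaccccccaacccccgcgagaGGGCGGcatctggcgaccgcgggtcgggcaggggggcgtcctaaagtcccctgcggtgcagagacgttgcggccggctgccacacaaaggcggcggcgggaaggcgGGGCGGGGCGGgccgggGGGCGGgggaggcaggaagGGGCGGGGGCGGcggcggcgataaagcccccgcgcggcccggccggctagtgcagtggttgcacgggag

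Of its bases 77.7% are G or C, more than in 97.9% of 32851 promoters of the same length, whose median is 52.7%. GGGCGG on either strand was present in 35.7% of those promoters. TATAAA, TTCNNNGAA (the STAT letters), CACGTG (E-box) and TGACTCA (AP-1) were not found in it. These were present in 13.6%, 8.30%, 7.15% and 5.20% of promoters.

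Serpinb6a (ENSMUSG00000060147, chr13:33917918-34002794, minus strand) is an intracellular serpin that inhibits trypsin-like proteases and cathepsin G. It stood at 272 TPM in WT (440 reads), 506 TPM in miR-26a KO (745 reads), 498 TPM in the mimic library (785 reads) and 411 TPM in Cart-miR-23clus KO (603 reads). WT was again the lowest, and both miR-26a -/- libraries lay at one level. The ratio to WT was 1.86 (1.65 to 2.10) in miR-26a KO and 1.51 (1.37 to 1.75) in Cart-miR-23clus KO. Cart-miR-23clus KO stood at 0.811 times miR-26a KO (0.745 to 0.926), and the mimic library at 0.984 times (0.895 to 1.10). The gene overlaps 1110046J04Rik, Nqo2 and Ripk1 on the other strand. Whether reads were counted by strand is not given in the sources used here.

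Serpinb1a (ENSMUSG00000044734, chr13:32842092-32851185, minus strand) inhibits neutrophil elastase, cathepsin G and proteinase 3 from inside the cell. It was at 17.5 TPM in WT (35 reads), 57.5 TPM in miR-26a KO (105 reads), 43.5 TPM in the mimic library (85 reads) and 45.6 TPM in Cart-miR-23clus KO (83 reads). The intervals of all 3 other libraries lay above that of WT and overlapped each other. Against WT the ratio was 3.29 (2.23 to 4.98) in miR-26a KO and 2.61 (1.78 to 4.09) in Cart-miR-23clus KO. This is the member with a miR-26 seed match, and with the mimic its level was 0.756 times that of miR-26a KO, with an interval that included 1 (0.565 to 1.02). Of the 14 proteases listed as targets of clade A and B serpins, Elane, the gene of neutrophil elastase, and Ctsg, that of cathepsin G, were at 0 reads in every library.

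Serpina3n (ENSMUSG00000021091, chr12:104406729-104414329, plus strand) is a secreted serpin of the acute phase response that inhibits chymotrypsin-like proteases and granzyme B. It was at 5.10 TPM in WT (11 reads), 25.0 TPM in miR-26a KO (49 reads), 24.7 TPM in the mimic library (52 reads) and 48.5 TPM in Cart-miR-23clus KO (95 reads). The 4 libraries fell into 3 steps whose intervals did not overlap, with both miR-26a -/- libraries on the middle one. The ratio to WT was 9.51 (5.21 to 20.2) in Cart-miR-23clus KO and 4.89 (2.51 to 10.4) in miR-26a KO, each on 11 WT reads. Cart-miR-23clus KO was at 1.94 times miR-26a KO (1.40 to 2.87), a pair in which both libraries passed 20 reads. The mimic left it at 0.992 times miR-26a KO (0.662 to 1.51). The seed match in its 3′ UTR is to miR-24-3p, one of the miRNAs deleted in Cart-miR-23clus KO.

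The Serpina3n promoter is shown for contrast with that of Serpine2, since the gene had the largest ratio of the 8 (RefSeq, GRCm38.p6, chr12:104406458-104406757, plus strand). None of the 5 motifs searched occurs in it, so no letters are in capitals, and 48.7% of its bases are G or C.
Serpina3n promoter: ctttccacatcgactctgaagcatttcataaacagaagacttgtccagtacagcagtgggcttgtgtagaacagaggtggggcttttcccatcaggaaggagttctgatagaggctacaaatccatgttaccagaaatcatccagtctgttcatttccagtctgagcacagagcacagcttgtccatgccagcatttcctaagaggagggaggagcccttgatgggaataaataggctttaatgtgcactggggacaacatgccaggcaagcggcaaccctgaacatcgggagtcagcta

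Promoters of Serpinb6a and Serpinf1 were also in the table. That of Serpinb6a at the upstream start (chr13:34002745-34003044) holds GGGCGG at 3 positions and TTCNNNGAA at 2, counting both strands. A second Serpinb6a promoter (chr13:33936034-33936333) and that of Serpinf1 hold none of the 5 motifs.

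Serpinf1 (pigment epithelium-derived factor, ENSMUSG00000000753, chr11:75409769-75422701, minus strand) is a secreted serpin that inhibits angiogenesis, has no known protease target and is needed for normal bone mineralisation. It was at 104 TPM in WT (199 reads), 103 TPM in miR-26a KO (180 reads), 124 TPM in the mimic library (231 reads) and 63.9 TPM in Cart-miR-23clus KO (111 reads). Here the low library was Cart-miR-23clus KO, whose interval lay below those of the other 3. The ratio was 0.614 to WT (0.494 to 0.798) and 0.618 to miR-26a KO (0.495 to 0.806), while miR-26a KO stood at 0.993 times WT (0.808 to 1.22). The summed level of the 10 osteoblast markers was 12753 TPM in WT, 6691 in miR-26a KO, 7557 in the mimic library and 3883 in Cart-miR-23clus KO, lowest in the same library. Of these markers 6 had at least 20 reads in every library, and Spp1 went the other way, with 2160 reads in Cart-miR-23clus KO and 1140 in WT. The part of these markers in the Serpinf1 value was not tested.

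Serping1 (C1 inhibitor, ENSMUSG00000023224, chr2:84765387-84775444, minus strand) blocks the complement proteases C1r, C1s and MASP and the contact system. It had 11 reads in WT (5.96 TPM), 5 in miR-26a KO (2.97 TPM), 6 in the mimic library (3.33 TPM) and 8 in Cart-miR-23clus KO (4.77 TPM). The 4 intervals overlap, and no difference was detectable at this depth (Cart-miR-23clus KO to WT 0.801, 0.287 to 2.24). In miR-26a KO the ratio to WT was 0.499, with an interval from 0.136 to 1.56.

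Plat (ENSMUSG00000031538, chr8:22757727-22782844, plus strand) had 9 reads in WT (2.13 TPM), 16 in miR-26a KO (4.16 TPM), 14 in the mimic library (3.40 TPM) and 8 in Cart-miR-23clus KO (2.09 TPM). Plau (ENSMUSG00000021822, chr14:20836660-20843385, plus strand) had 2 reads in WT (0.817 TPM), 7 in miR-26a KO (3.14 TPM), 10 in the mimic library (4.19 TPM) and 5 in Cart-miR-23clus KO (2.25 TPM). For each activator the 4 intervals overlap. The Plat ratio to WT was 1.95 (0.813 to 5.02) in miR-26a KO and 0.979 (0.337 to 2.93) in Cart-miR-23clus KO. The Plau ratio was 3.84 (0.733 to 38.0) in miR-26a KO and 2.75 (0.462 to 29.6) in Cart-miR-23clus KO. Both intervals of Plau include 1, and with 1 TPM added to each level the ratios were 2.28 and 1.79. Plau, with Serpine2 and Serpinb1a, is also in a gene list that the study drew from the RNA of these samples together with protein measurements not analysed here, so for RNA that list is not independent evidence of direction.

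**Figure D2:**
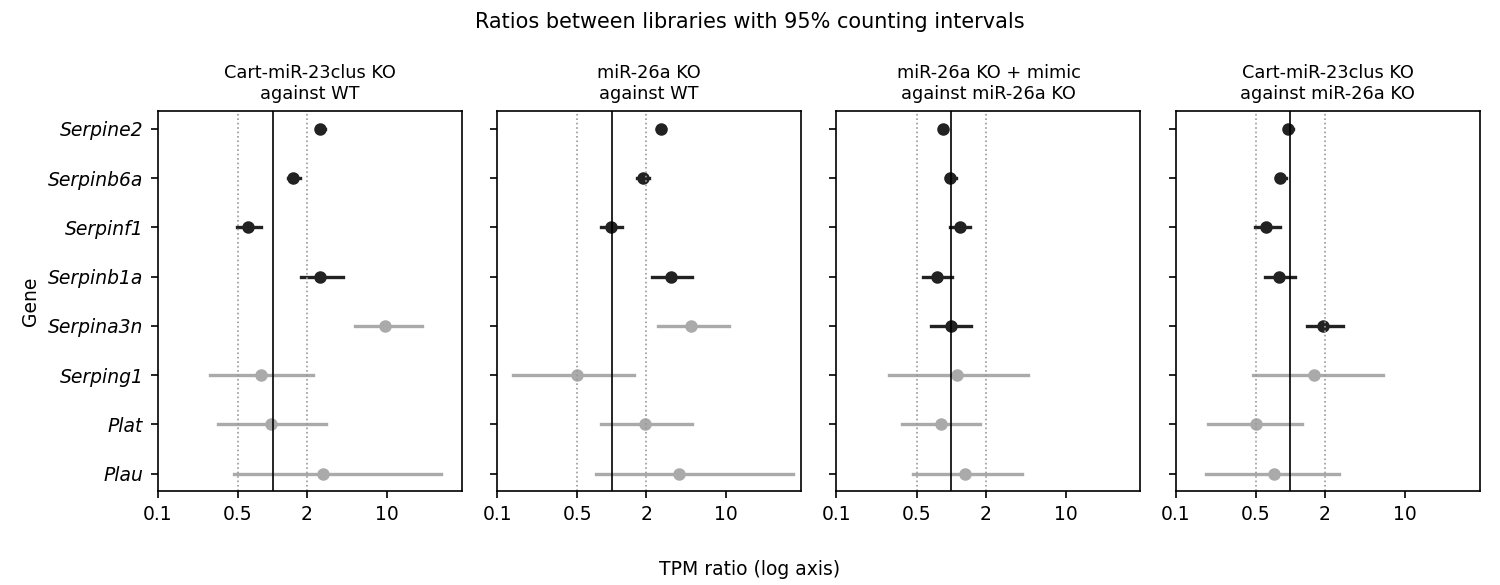
TPM ratio of each of the 8 genes in the 4 comparisons, on a log axis with dotted lines at 0.5 and 2. Bars are exact 95% counting intervals, and grey marks genes with fewer than 20 reads in either library. Serpine2 and Serpinb1a lie above 2 against WT in both knockouts, and no gene lies above 2 or below 0.5 among those in black in the other 2 comparisons.

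Called above 2-fold or below 0.5-fold, with 20 reads or more in both libraries, were 2 of the 4 members that could be compared between Cart-miR-23clus KO and WT (Serpine2 and Serpinb1a, both above). Among all 6935 genes compared, 2.06% were above 2-fold and 1.47% below 0.5-fold. In miR-26a KO against WT the same 2 of 4 were above, beside 1.59% of 7028 genes above and 0.811% below. With no minimum of reads 4 members were above in each of these comparisons, as Serpina3n and Plau, with few WT reads, entered, where 10.3% of 13620 genes were above in Cart-miR-23clus KO and 8.72% of 13586 in miR-26a KO. Serping1 was then below in miR-26a KO, beside 7.51% of all genes, or 5.66% with at least 10 reads together. When the mimic library was set against miR-26a KO, 0 of 5 were past either limit, where 0.197% of 7110 genes were above and 0.183% below. In Cart-miR-23clus KO against miR-26a KO 0 of 5 were past either limit, beside 1.21% of 6858 genes above and 1.15% below. With TMM factors in place of TPM, 1 member, Serpina3n (TPM ratio 1.94, close to the limit), passed 2-fold there, beside 1.36% of all genes compared. Because the members were selected on these values, nothing is read from the counts against WT. The median log2 ratio over all 8 members was 0.98 in Cart-miR-23clus KO against WT and 1.19 in miR-26a KO against WT, beside −0.01 and 0.04 over the genes compared. It was −0.02 for the mimic against miR-26a KO and −0.32 for Cart-miR-23clus KO against miR-26a KO, beside −0.01 and −0.05. Each median takes in 3 or 4 members under 20 reads.

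**Figure D3:**
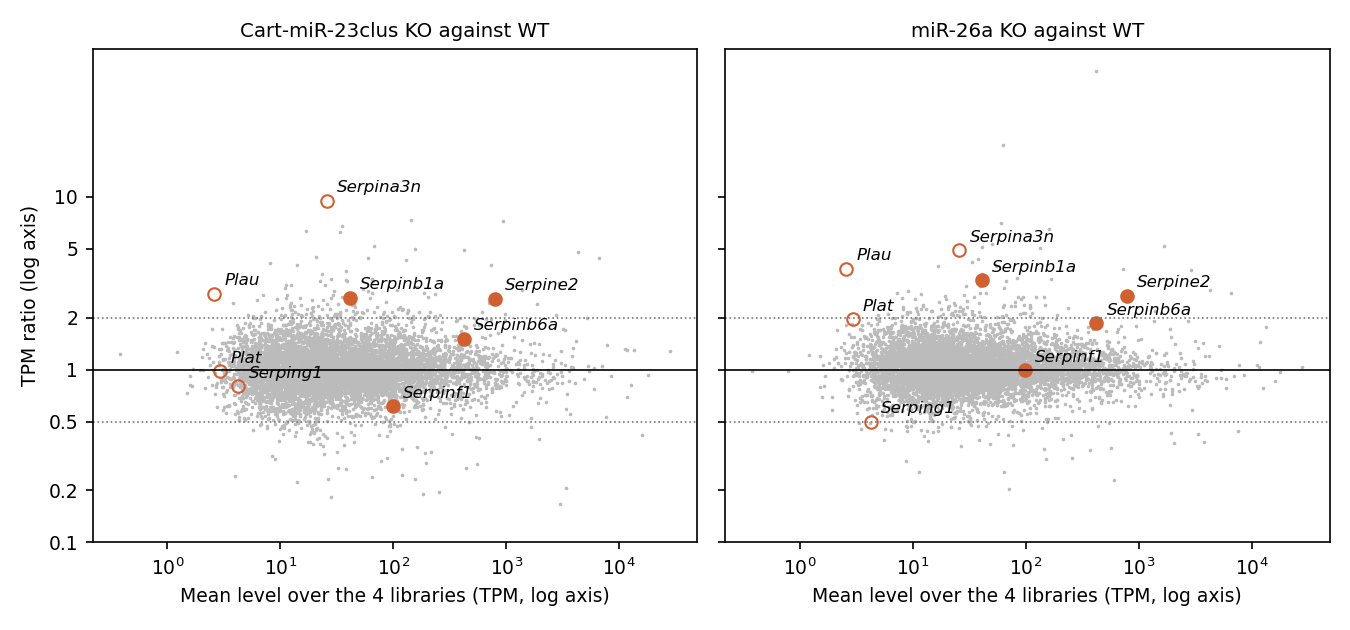
TPM ratio to WT against the mean TPM of the 4 libraries, both on log axes, for Cart-miR-23clus KO (left) and miR-26a KO (right). Grey points are genes with 20 reads or more in both libraries, filled circles are members that pass that minimum and open circles are members that do not. Serpina3n lies at 9.51 on the left, on 11 WT reads.

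In order of level, Serpine2 came first, Serpinb6a next and Serpinf1 after it in every library, and Serpinb1a followed in all but Cart-miR-23clus KO. There Serpina3n came before Serpinb1a, but Serpinf1, Serpina3n and Serpinb1a were neighbours whose intervals overlapped. At the low end Serping1, Serpina3n, Plat and Plau had overlapping neighbours in WT, and Serping1, Plat and Plau did in the other 3 libraries. By CPM, a scale without gene length, the first 3 places were the same in every library.

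Among genes with at least 50 reads in every library (3823 genes), the pattern of Serpine2 over the 4 libraries lay nearest to Cdk1, Anxa1 and P4ha3. Likeness was measured as the root mean square distance between log2(TPM + 0.5) values centred on each gene's mean, which was 0.14, 0.14 and 0.15. Nearest to Serpinb6a were Timp2 (0.03), Crip2 (0.06) and Enpp2 (0.07). Timp2, an inhibitor of metalloproteinases, was at 887 TPM in WT, 1685 in miR-26a KO, 1582 in the mimic library and 1310 in Cart-miR-23clus KO, the same order of libraries as Serpinb6a. Nearest to Serpinf1 were Atg4b (0.05), Wipi2 (0.05) and Inhba (0.07). With 4 points per gene these distances are a description.

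Of 63 genes with a Serpin symbol, 41 had 0 reads in all libraries and 7 had at least 20 reads in each. Reads on serpins made up 5058 in WT, 6413 in miR-26a KO, 6497 in the mimic library and 5054 in Cart-miR-23clus KO. The largest contributor in WT was Serpinh1, the collagen chaperone HSP47, which is a serpin by fold without inhibitory activity. It took 65.5% of serpin reads in WT, 40.7% in miR-26a KO, 42.2% in the mimic library and 36.5% in Cart-miR-23clus KO. The share of Serpine2 was 16.9% in WT, 32.5% in miR-26a KO, 29.2% in the mimic library and 39.6% in Cart-miR-23clus KO. Only in Cart-miR-23clus KO did Serpine2 have more reads than Serpinh1 (2001 and 1844), and in WT Serpinh1 had 3314. Serpinb6a took 8.70% in WT and 11.6% to 12.1% in the other 3 libraries.

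**Figure D4:**
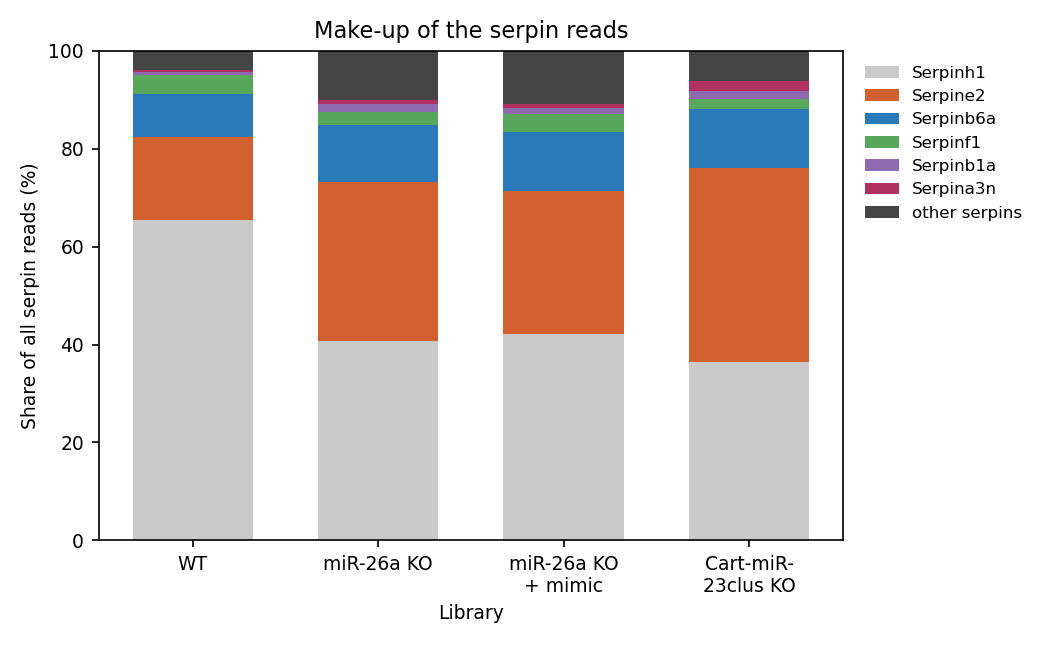
Share of all serpin reads taken by each serpin in each library, in percent, as stacked bars from 0 to 100. The Serpine2 segment runs from 16.9% in WT to 39.6% in Cart-miR-23clus KO.

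Of 15 genes of the plasminogen system other than serpins, Plat and Plau included, 6 could be compared in each comparison. Against WT 0 were above 2-fold and 0 below 0.5-fold in either knockout. Over all genes compared, 2.06% were above and 1.47% below in Cart-miR-23clus KO, and 1.59% and 0.811% in miR-26a KO. This pathway list and those below were written with earlier results of these data known, so their counts are a description. Plg, the gene of plasminogen itself, was at 0 reads in all libraries, as were Vtn, Serpinf2 (the plasmin inhibitor α2-antiplasmin), Serpinb2, Cpb2, Hrg and F12. The receptor side was present. Anxa2 had the most reads of the list, at 1207 in WT, 1659 in miR-26a KO, 1823 in the mimic library and 1282 in Cart-miR-23clus KO. S100a10, its partner in the plasminogen-binding complex, had 293, 311, 346 and 139 reads in the same order, a ratio of Cart-miR-23clus KO over miR-26a KO of 0.448 (0.373 to 0.562). S100a10 was the 1 gene of these 6 below 0.5-fold in that comparison, and 0 were above 2-fold. The shares over all genes compared there were 1.15% below and 1.21% above. Eno1, a glycolytic enzyme that binds plasminogen at the cell surface, was at 1.76 times WT in Cart-miR-23clus KO (1.34 to 2.43), although its reads may be split with a near-identical copy, Eno1b. Plgrkt, a membrane plasminogen receptor, had 36 to 53 reads, and its intervals included 1 in all 4 comparisons. The urokinase receptor Plaur had 4, 6, 10 and 7 reads.

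Thrombin is a target of Serpine2, and its gene F2 was at 0 reads in every library. Of 22 genes for coagulation factors and thrombin receptors, 4 could be compared against WT, and F2r alone was above 2-fold in each knockout, with none below. F2r, the thrombin receptor PAR1, had 36 reads in WT, 70 in miR-26a KO, 81 in the mimic library and 107 in Cart-miR-23clus KO. WT was the lowest. Its ratio to WT was 3.27 (2.28 to 5.04) in Cart-miR-23clus KO and 2.14 (1.41 to 3.29) in miR-26a KO. Thbd (thrombomodulin) had 81, 104, 103 and 46 reads in the same order, with a ratio of Cart-miR-23clus KO over miR-26a KO of 0.443 (0.314 to 0.648). Pros1, the cofactor protein S, had the most reads of the list (152 to 201). Procr, the protein C receptor, had 14 to 30 reads and F5 58 to 66.

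Among the proteases that Serping1 inhibits, C1ra, C1s1 and Masp1 had more reads than Serping1 in every library, while Masp2 had 1 read at most. Of 16 genes of the C1 and lectin pathways, 8 could be compared between Cart-miR-23clus KO and WT. C1ra, C1s1 and Masp1 were the 3 above 2-fold, and none was below 0.5-fold, beside 2.06% above and 1.47% below over all genes compared. C1ra had 105 reads in WT, 194 in miR-26a KO, 180 in the mimic library and 248 in Cart-miR-23clus KO. Its ratio to WT was 2.60 (2.11 to 3.38) in Cart-miR-23clus KO and 2.03 (1.59 to 2.60) in miR-26a KO. For C1s1, with 50 and 93 reads, the ratio of Cart-miR-23clus KO to WT was 2.05 (1.47 to 3.02). For Masp1, with 46 and 87 reads, it was 2.08 (1.48 to 3.12). C4b, the substrate of C1s, had the most reads of the list and stood at 1.76 times WT (1.55 to 2.09). C1ra, C1s1 and C4b have close copies in the mouse genome (C1rb, C1s2 and C4a) that could share reads with them, and C1rb was at 0 reads and C1s2 at 1 at most. In miR-26a KO against WT, 6 of the 16 could be compared, with C1ra above, though under 2-fold with TMM or DESeq2 factors, and C1qb below (0.371, 0.224 to 0.598). The shares over all genes compared were 1.59% above and 0.811% below in miR-26a KO. C1qa had 77 reads in WT and 19 in miR-26a KO, and C1qc 67 and 12, too few there to be compared. C1qb is made by macrophages, and the summed level of the 12 macrophage and osteoclast markers was 1136 TPM in WT, 546 in miR-26a KO, 954 in the mimic library and 1462 in Cart-miR-23clus KO. None of the 12 was at 0 in all libraries, and 4 had at least 20 reads in each. In miR-26a KO against WT 3 of the 4 compared were lower and 1 higher, Ctsk at 1.39 times WT (1.14 to 1.69). Between Cart-miR-23clus KO and WT 9 could be compared, with 7 higher and 2 lower. Lyz2, the marker with the highest TPM, was one of the lower, at 0.979 times WT (0.900 to 1.12). The part of these cells in the values was not tested.

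Of the listed target proteases of clade A and B serpins, 3 of 14 could be compared between Cart-miR-23clus KO and WT, namely the cathepsins Ctsl, Ctsk and Ctss, and none was past either limit. Over all genes compared, 2.06% were above 2-fold and 1.47% below 0.5-fold. Ctsl had the most reads (493 in WT, 585 in miR-26a KO, 669 in the mimic library and 615 in Cart-miR-23clus KO). Ctsk, the collagen-degrading cathepsin of osteoclasts, was at 1.83 times WT in Cart-miR-23clus KO (1.56 to 2.25). Ctsk and Ctss are also on the macrophage and osteoclast list.

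Serpina3n is an acute phase gene, and of 15 genes of that response and of STAT3 signalling 8 could be compared between Cart-miR-23clus KO and WT. Timp1 and Socs3 were above 2-fold and none was below. Of the genes under the minimum, Lcn2 had 10 reads in WT and 49 in Cart-miR-23clus KO, Hp 6 and 27, Pim1 3 and 28, Saa3 1 and 15, and Il6ra 5 and 11. These were picked out because they are high in Cart-miR-23clus KO, so they add nothing to the count. Socs3, the feedback inhibitor of cytokine receptors, had 58 reads in WT, 72 in miR-26a KO, 111 in the mimic library and 144 in Cart-miR-23clus KO, lowest in WT and highest in Cart-miR-23clus KO as Serpina3n was. Its ratio to WT was 2.73 (2.05 to 3.87) in Cart-miR-23clus KO and 1.36 (0.953 to 1.96) in miR-26a KO. Timp1, a metalloproteinase inhibitor with the most reads of the list, was at 2.89 times WT (2.69 to 3.27) in Cart-miR-23clus KO. It was at 2.18 times WT (1.97 to 2.42) in miR-26a KO and alone above 2-fold among the 8 compared there, beside 1.59% of all genes compared. In miR-26a KO Lcn2 had 53 reads, Pim1 22 and Saa3 6, while Hp had 3 and Il6ra 3, both fewer than in WT. Osmr, the oncostatin M receptor, was at 1.76 times WT (1.42 to 2.30) in Cart-miR-23clus KO. Il6st, its signalling partner, was at 0.912 times (0.792 to 1.10) and Cebpb at 1.34 times (0.892 to 2.13). Il6 was at 0 reads in every library.

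The sum of adipocyte markers (7 genes) was 163 TPM in WT, 129 in miR-26a KO, 174 in the mimic library and 486 in Cart-miR-23clus KO. That of smooth muscle and pericytes (7 genes) was 188, 186, 233 and 371 TPM in the same order, and these sums, like the macrophage and osteoclast sum given above, were highest in Cart-miR-23clus KO. In the adipocyte and smooth muscle lists 3 and 2 of the 7 genes had at least 20 reads in every library. The smooth muscle sum is mostly Acta2, at 2.04 times WT in Cart-miR-23clus KO (1.83 to 2.41). Pdgfrb, the other gene of that list with enough reads, was at 0.973 times WT (0.796 to 1.25). Lep and Cidec were at 0 reads throughout, as were Myh11 and Rgs5. The fibroblast sum (8 genes) was 566, 623, 631 and 399 TPM and is mostly Col3a1, at 0.588 times WT in Cart-miR-23clus KO. The other 2 of its genes that could be compared there were higher, Ly6a at 1.54 and Pdgfra at 1.31 times WT. The chondrocyte sum (10 genes) was 15237, 11060, 10837 and 10582 TPM, highest in WT, where Serpine2 was lowest, and Col2a1 has the most of it. In either KO library 8 of its 10 genes were lower than in WT, while Prg4 was at 2.16 times WT in Cart-miR-23clus KO and 3.36 times in miR-26a KO, and Comp at 1.70 and 1.19. The part of these in the serpin values was not tested.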

How the data were processed

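RNA of cultured articular chondrocytes was sequenced in 4 libraries, 1 per condition (QuantSeq 3′ FWD, single-end reads of 75 bases). The authors mapped the reads to mm10 (GRCm38.p6 in the submitters' notes) and normalized to TPM. The aligner, counter and strand setting are not given in the sources used here. An estimated count per gene, in whole reads, was deposited for 3 libraries. The mimic library was deposited as TPM, and its reads were recovered with the gene lengths implied by the other libraries: 14429 of 14429 values tested were whole within 0.01 read, and 588 genes could not be recovered. Groups came from the labels.

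Members, pathway lists and tests were chosen with earlier results of these data known. With 1 library per condition no p-value was computed. Ratios of TPM carry exact Clopper-Pearson 95% intervals on reads, which cover counting error only, with reads on genes as totals. Ratios of CPM were 1.02 times the TPM ratios for Cart-miR-23clus KO against WT. Calls needed 2-fold and at least 20 reads in both libraries. The genes named were the members, from each list the gene with the most reads and up to 4 with the largest ratio past that minimum, and the 3 nearest patterns. Marker genes and listed genes at 0 were named too, and Plaur, Il6, Masp2, Lcn2, Hp, Pim1, Saa3, Il6ra, C1qa and C1qc were named after their values were seen, and 1 gene that the rule names is not reported here. Alternatives were CPM, TMM factors (edgeR 4.0.16), size factors (DESeq2 1.42.0), other minimums, pseudocounts, 99% intervals and other seed matches. Steps were tested on simulated data. Positions and UTRs came from GENCODE vM21, and none of the 75-base stretches in the last 500 mRNA bases of a member occurs in another serpin, Plat or Plau. Promoters were listed for 4 members. The software was R 4.3.3 and Python 3.11.15 with scipy 1.17.1, pandas 2.3.3, matplotlib 3.10.9 and numpy 2.4.6.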

Additional observations from a re-analysis of the deposited data

How the results depend on the processing

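Each of the 160 ratios of a member recomputed under CPM, TMM, size factors or added pseudocounts stayed within its 95% interval, which is wide for genes with few reads: with 1 TPM added, Plau against WT was 2.28 in miR-26a KO and 1.79 in Cart-miR-23clus KO. No ratio whose 95% interval excluded 1 crossed 1, and none had a 99% interval that included 1, while the 24 recomputed medians stayed within the range given by the members' intervals. With no minimum of reads, 4 members were above 2-fold against WT in miR-26a KO and 4 in Cart-miR-23clus KO, as Serpina3n and Plau entered, and the share of all genes above rose too, to 8.72% and 10.3%. In miR-26a KO against WT, 1 member (Serping1, 5 and 11 reads) was below 0.5-fold with at least 10 reads together or with no minimum. With TMM factors 1 member, Serpina3n (TPM ratio 1.94), passed 2-fold in Cart-miR-23clus KO against miR-26a KO, beside 1.36% of all genes compared. Requiring 8 bases left 0 members with a match for miR-23a-3p, 0 for miR-24-3p, 0 for miR-27 and 0 for miR-26. Counts of list genes were within 1.5 times in 189 of 240 recomputations, higher in 49 and lower in 2, where C1ra (2.03) dropped under 2-fold. No paired analysis was possible because no condition had a second library. Depth limits Serping1, Plat and Plau most, with 2 to 16 reads per library.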
